A study of Mus musculus with 15 samples.

Results

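The 10 genes described here mark the blood and lymph vessels of the gut and the steps by which leukocytes leave the blood. They were taken by symbol from a table of 32544 gene symbols counted in mouse colon, and all 10 were found and tested. The 6 endothelial identity genes were *Pecam1*, *Cdh5*, *Kdr*, *Vwf*, *Lyve1* and *Ackr1*, and the 4 inducible leukocyte adhesion genes were *Sele*, *Selp*, *Vcam1* and *Madcam1*.

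Bulk RNA-seq had been done on colon tissue of mice of 3 *Tert* genotypes, the gene of the protein subunit of telomerase. WT mice carried the normal gene, VAA mice a knock-in whose protein is described as enzymatically inactive, and KO mice a knockout (TERT-/-). DSS mice drank 3% dextran sulfate sodium, which injures the colon epithelium and gives an experimental colitis, for 4 days and normal water for another 4, and tissue was collected at day 8. Untreated mice of the same genotypes were the controls. Each genotype had 2 untreated libraries and 3 from DSS mice, which makes 15. Mice were 8 to 12 weeks old. The labels do not say whether replicates were separate animals, so the p-values reflect the spread among libraries, which may be technical. The strain, the edited bases and the region of colon sampled are not stated in them either.

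As background, the endothelial cells that line vessels are held together by PECAM-1 and by VE-cadherin, the product of *Cdh5*. In inflamed tissue, cytokines such as TNF and IL-1 act on the endothelium of small veins through NF-kappaB. E-selectin (*Sele*) and P-selectin (*Selp*) then slow passing leukocytes to a roll, and VCAM-1 and MAdCAM-1 bind the integrins on which leukocytes arrest. In the gut MAdCAM-1 is the main vascular ligand of integrin alpha4 beta7, which guides lymphocytes to the intestine.

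Library totals ran from 10.56 to 17.54 M counts. *Tert* itself had 37 and 40 counts in untreated WT, 25 and 15 in VAA and 1 and 1 in KO, and under DSS 26, 36 and 23 in WT, 29, 12 and 7 in VAA and 0, 0 and 1 in KO, so the KO libraries were the lowest. VAA DSS replicate 3 stood apart and was the shallowest library, with 13.59% of its counts in 3 genes of identical values against 4.15% to 9.65% elsewhere. Relative to the mean of VAA DSS replicates 1 and 2, that library held 2.15 to 4.32 times the CPM of 9 members and 1.01 times that of *Vcam1*, while the median over all genes was 0.989. Its 8 pericyte markers summed to 790.9 CPM against 202.4 and 273.5 in the other two, and its 7 fibroblast markers to 3336 against 1292 and 1978, and their part in the members' levels was not tested. *Ddx3y*, a Y-linked gene, had 914 counts in WT untreated replicate 2, 868 in KO untreated replicate 2 and 5 to 20 in the others, so these 2 libraries were read as male. Calls of members that change without VAA DSS replicate 3 or without both male libraries are named beside the results. For genes of the marker lists no such check was made gene by gene.

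Promoter windows of 300 bases, from 250 before to 50 after the start, were held for 5 of the 10 members in RefSeq sequence on GRCm38.p6. Those of the inducible genes are shown because these are the genes for which NF-kappaB is the textbook inducer. *Madcam1* (chr10:79664309-79664608, + strand), *Sele* (chr1:164047984-164048283, + strand) and *Selp* (chr1:164115014-164115313, + strand) read 5′ to 3′ as follows, with the motif matches in capitals.
Madcam1: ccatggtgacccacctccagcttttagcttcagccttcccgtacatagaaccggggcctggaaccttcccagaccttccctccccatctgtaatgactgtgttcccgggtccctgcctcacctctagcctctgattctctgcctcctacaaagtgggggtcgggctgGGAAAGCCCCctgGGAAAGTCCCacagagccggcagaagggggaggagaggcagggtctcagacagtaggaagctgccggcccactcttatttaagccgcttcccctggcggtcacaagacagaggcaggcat
Sele: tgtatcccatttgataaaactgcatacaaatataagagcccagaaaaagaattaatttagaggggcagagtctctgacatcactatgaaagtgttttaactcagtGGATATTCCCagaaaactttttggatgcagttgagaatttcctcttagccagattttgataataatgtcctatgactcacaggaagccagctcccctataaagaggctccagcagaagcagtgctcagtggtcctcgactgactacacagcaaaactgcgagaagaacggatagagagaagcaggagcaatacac
Selp: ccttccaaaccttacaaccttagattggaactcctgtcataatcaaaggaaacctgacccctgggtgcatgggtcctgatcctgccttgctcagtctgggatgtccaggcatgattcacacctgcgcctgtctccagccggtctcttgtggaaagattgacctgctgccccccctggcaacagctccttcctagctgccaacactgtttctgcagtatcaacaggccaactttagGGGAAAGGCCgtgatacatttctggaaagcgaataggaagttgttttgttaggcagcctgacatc
The 2 capital runs of *Madcam1* match the NF-kappaB consensus on the minus strand, at -83 to -74 and -70 to -61 from the start. *Sele* and *Selp* held no match to that consensus in this window, and the capitals mark the looser GGGNNNNNCC, chosen after these windows were seen, at -145 to -136 on the minus strand and -15 to -6 on the plus strand. *Kdr* held 1 place that matches the consensus on both strands, at -74 to -65, and *Ackr1* none. Searched on both strands, with every consensus match also a GGGNNNNNCC match, the consensus was in 8.5% of all 32544 distinct windows and GGGNNNNNCC in 51.0%. The sequence CCGGAA, which ETS factors can bind, was in 4876 of the windows and among these members in *Kdr* only. A match is a description of the letters and not evidence of a bound site.

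In untreated colon 5 of the 6 identity genes and *Vcam1* had at least 90 counts in every library, while *Ackr1* and *Selp* had 19 to 33 and *Sele* and *Madcam1* 0 to 9. Per kilobase of annotated exon in untreated WT, the mean level was highest for *Lyve1*, at 7.65 ± 0.231 CPM per kb (SD, n = 2), a hyaluronan receptor of lymphatic endothelium. *Pecam1* followed at 5.69 ± 0.355 CPM per kb. *Vcam1* stood at 2.85 ± 0.248, and the next 2 genes, *Vwf* at 2.30 ± 0.205 and *Cdh5* at 2.26 ± 0.756, did not differ beyond their spread. *Kdr* (1.45 ± 0.154) and *Ackr1* (1.28 ± 0.0866) were neighbours that differed by little more than their spread. *Selp* was at 0.444 ± 0.0746, *Madcam1* at 0.117 ± 0.166 and *Sele* at 0.0231 ± 0.0327 CPM per kb. With only 2 libraries in each untreated group, these SDs are themselves uncertain. Of the 10 members 0 were called between any 2 genotypes without DSS, as were 0% of all genes in each of the 3 comparisons. *Tert* itself was not called in untreated KO, at -5.09 ± 0.77 against WT and -4.34 ± 0.80 against VAA (edgeR adjusted p = 0.269 and 0.856). The absence of calls therefore does not show that the untreated genotypes were alike. At an unadjusted p under 0.05 there were 352 genes between KO and WT, 233 between VAA and WT and 401 between KO and VAA, of which 0, 0 and 1 were members. That member was *Vcam1*, at a log2 fold change of -0.44 ± 0.20 in untreated KO against VAA (edgeR unadjusted p = 0.0427). DESeq2 called 9, 2 and 3 genes.

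**Figure D1:**
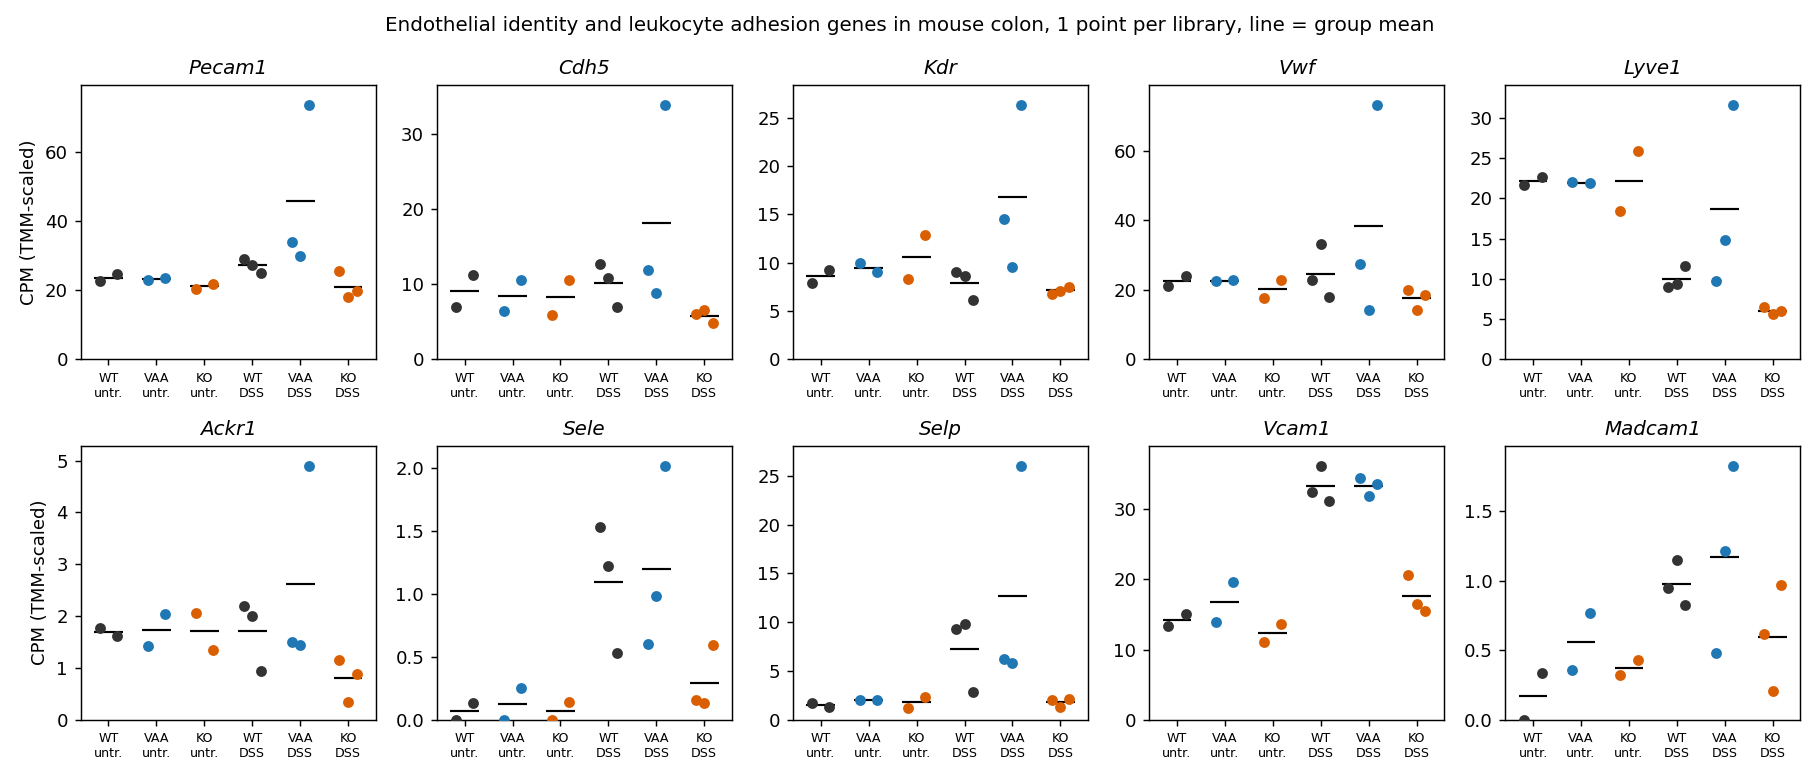
TMM-scaled CPM of the 10 genes (y axis, linear, each panel with its own scale) in the 6 groups (x axis), 1 point per library and a line at the group mean. VAA DSS replicate 3 was the highest library of the study for 9 of the 10 genes, the exception being *Vcam1*, for which WT DSS replicate 2 was the highest at 36.2 CPM.

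*Selp* and *Vcam1* rose under DSS in WT and VAA colon and *Sele* in WT, while most identity genes passed no test. Called means a p under 0.05 in edgeR's quasi-likelihood test after Benjamini-Hochberg adjustment over 17477 genes. In WT colon *Sele*, *Selp* and *Vcam1* rose and *Lyve1* fell, so 3 of 4 adhesion genes and 0 of 6 identity genes were called higher where 14.1% of all genes were, and 0 of 4 and 1 of 6 were called lower where 12.5% were. In VAA colon *Selp*, *Vcam1* and *Pecam1* rose, 2 of 4 adhesion genes and 1 of 6 identity genes, against 10.9% of all genes called higher and 9.54% lower. In KO colon 0 members were called higher, against 5.59% of all genes, and *Lyve1* alone was called lower, against 5.06%. In the mean of the 3 genotypes' effects all 4 adhesion genes were called higher and *Lyve1* was the only identity gene called, lower, against 22.5% of all genes called higher and 20% lower. The median log2 fold change of the adhesion genes was 2.35 in WT, 1.83 in VAA and 0.58 in KO, beside 0.06, 0.78 and -0.54 for the identity genes and -0.01, 0.06 and 0.0031 for all genes tested. The shares of all genes called also stand beside the counts over marker lists given below. In bulk tissue a change in the number of cells of a type and a change in RNA per cell cannot be told apart.

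**Figure D2:**
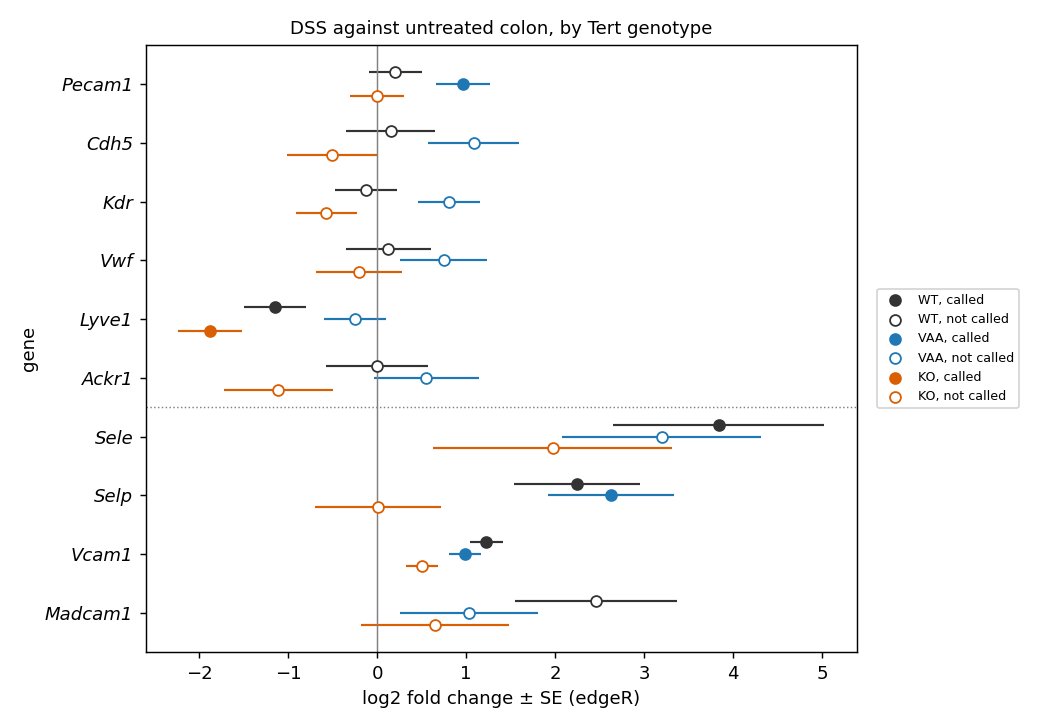
Log2 fold change of DSS against untreated with its SE from the edgeR fit (x axis) for each gene (y axis; identity genes above the dotted line, adhesion genes below) in WT, VAA and KO colon. Filled points were called at an adjusted p under 0.05, 4 in WT, 3 in VAA and 1 in KO.

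*Vcam1*, the ligand of alpha4 integrins, gave the steadiest change. It stood at 13.3 and 15.1 CPM in untreated WT and at 32.5, 36.2 and 31.2 in WT DSS. In VAA it stood at 13.9 and 19.7 untreated and at 34.5, 32.0 and 33.6 under DSS. In KO it stood at 11.1 and 13.7 untreated and at 20.7, 16.5 and 15.5 under DSS. DSS libraries lay above the untreated libraries of their genotype in every case. The KO DSS libraries lay below all WT and VAA DSS libraries. Over all genes tested, DSS libraries lay above their controls for 31.9% in WT, 21.0% in VAA and 24.1% in KO. They lay below them for 31.1%, 19.7% and 24.0%, and these shares stand beside each separation in CPM given below. KO DSS libraries lay below WT DSS libraries for 19.5% of genes and below VAA DSS libraries for 14.6%. The edgeR log2 fold change was 1.23 ± 0.18 (SE) in WT (adjusted p = 0.000445) and 0.99 ± 0.18 in VAA (adjusted p = 0.00174). In KO it was 0.51 ± 0.18 and was not called (edgeR adjusted p = 0.0912). The fit of the VAA libraries alone ended the VAA call (edgeR adjusted p = 0.053, range over 22 alternatives 1.6e-05 to 0.053), and none of 22 ended that in WT. VCAM-1 is also made by macrophages and stromal cells. The 9 macrophage markers summed to 110.1 to 168.0 CPM in the untreated libraries, 117.4 to 186.7 in WT DSS, 160.2 to 269.5 in VAA DSS and 92.5 to 146.4 in KO DSS, and their part in *Vcam1* was not tested.

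*Selp* encodes P-selectin, stored in endothelial Weibel-Palade bodies and platelet granules and, in mice, also induced at the RNA level by inflammatory cytokines. It was at 1.71 and 1.35 CPM in untreated WT and at 9.26, 9.81 and 2.83 in WT DSS. In VAA it was at 2.00 and 2.04 untreated and at 6.20, 5.84 and 26.02 under DSS. In KO it was at 1.23 and 2.35 untreated and at 2.02, 1.30 and 2.08 under DSS. The groups separated in WT and in VAA, with WT DSS replicate 3 closest to the untreated level, and in KO the DSS libraries lay within the untreated range. The edgeR log2 fold change was 2.24 ± 0.71 in WT (adjusted p = 0.0330) and 2.63 ± 0.71 in VAA (adjusted p = 0.0182). In KO it was 0.0072 ± 0.71 (edgeR adjusted p = 0.997), whose SE leaves room for changes of either sign. Without VAA DSS replicate 3 the VAA value was 1.57 and was still called (edgeR adjusted p = 0.0313, range 0.00057 to 0.12). That call ended in 4 of 22 alternatives, without either untreated VAA library among them. The WT call ended in 6 of 22 alternatives, among them the fits without both male libraries (2.08, edgeR adjusted p = 0.191), either untreated WT library or WT DSS replicate 1 or 2. Over all 22 the log2 fold change ran from 1.97 to 2.64, with adjusted p up to 0.19 in edgeR. Of 10 platelet and megakaryocyte markers 7 were tested, and 1 was called higher and 1 lower in WT as in VAA, *Gp1bb* and *Gp6*, while in KO 1 was higher and 2 were lower. Antisense gene models overlap exons of *Selp* and *Vcam1*, and 12.5% of the distinct 31-base words of *Selp* transcripts are shared with other genes, so that part of their reads could be assigned elsewhere.

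*Sele*, E-selectin, which activated endothelium makes, was near the limit of counting. It had 0 and 2 counts in untreated WT, 0 and 3 in VAA and 0 and 2 in KO. Under DSS it had 21, 16 and 9 counts in WT, 10, 17 and 21 in VAA and 2, 2 and 8 in KO. Every WT and VAA DSS library lay above all untreated libraries, and 2 of the KO DSS libraries lay inside the untreated range. The ratio of scaled counts, DSS to untreated, was 15.5 in WT (46 against 2 counts, exact 95% interval 4.06 to 132.0) and 9.28 in VAA (48 against 3, 2.99 to 46.6). In KO the ratio was 4.31 (12 against 2, 0.96 to 39.7). These intervals cover counting error only. The edgeR adjusted p was 0.0301 in WT, 0.0598 in VAA and 0.380 in KO, and 0.00399 for the mean of the 3 effects. The WT call ended in 5 of 22 alternatives, without both males (edgeR adjusted p = 0.0715), either untreated WT library or WT DSS replicate 1 or 2 (0.0696 to 0.207), and the call for the mean effect ended in none of 21.

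*Madcam1*, the mucosal addressin whose 2 consensus matches are shown above, was also low. It had 0 and 5 counts in untreated WT, 5 and 9 in VAA and 5 and 6 in KO, and under DSS 13, 15 and 14 in WT, 8, 21 and 19 in VAA and 8, 3 and 13 in KO. Only in WT did all DSS libraries lie above the untreated ones. The log2 fold change was 2.46 ± 0.91 in WT and missed the threshold (edgeR adjusted p = 0.0622). It passed in 5 alternatives: DESeq2 (adjusted p = 0.0413), the compared groups alone (0.0432), and the edgeR fits without VAA DSS replicate 3 (2.47, 0.0395), without WT untreated replicate 2 (6.80, 0.0318) and without both male libraries (6.80, 0.0431). The last 2 leave 1 WT control, at 0 counts, so 6.80 depends on the prior count and is no measured fold. The log2 fold change was 1.03 ± 0.78 in VAA and 0.65 ± 0.83 in KO (edgeR adjusted p = 0.391 and 0.671). The mean of the 3 effects was 1.38 ± 0.49 (edgeR adjusted p = 0.0358), a call lost in 9 of 21 alternatives. These were the replicate block and the fits without replicate 1 of each untreated group, KO untreated replicate 2, WT DSS replicate 1 or 2, or KO DSS replicate 1 or 3. MAdCAM-1 is also found on stroma of lymphoid follicles, and 2 of 9 lymphoid stroma and B cell follicle markers rose in WT, 1 in VAA and 1 in KO. Their sum ran from 14.6 to 89.0 CPM in untreated libraries and from 29.1 to 175.7 under DSS, and its part in *Madcam1* was not tested.

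*Lyve1* was the identity gene that fell. It stood at 21.7 and 22.6 CPM in untreated WT and at 8.97, 9.35 and 11.6 in WT DSS. In VAA it stood at 22.0 and 21.9 untreated and at 9.69, 14.8 and 31.6 under DSS. In KO it stood at 18.4 and 25.9 untreated and at 6.51, 5.59 and 5.95 under DSS. The WT and KO groups separated, and in VAA DSS 2 libraries lay below and replicate 3 above the untreated level. The edgeR log2 fold change was -1.15 ± 0.35 in WT (adjusted p = 0.0278) and -1.88 ± 0.36 in KO (adjusted p = 0.00631). In VAA it was -0.25 ± 0.35 (edgeR adjusted p = 0.679), and without VAA DSS replicate 3 it was -0.85 and called (edgeR adjusted p = 0.0104). The WT call ended in the same 6 of 22 alternatives as that of *Selp*, among them that without both male libraries (-1.11, edgeR adjusted p = 0.133), and the KO call in 2, without both male libraries and without the male KO untreated library (both -1.61, edgeR adjusted p = 0.0829 and 0.0566). *Lyve1* is also made by some tissue macrophages. Of 9 macrophage markers *Folr2* and *Mrc1* fell in WT and KO. Their edgeR log2 fold changes were -1.42 ± 0.30 and -0.93 ± 0.29 in WT and -1.02 ± 0.30 and -1.14 ± 0.29 in KO. The 7 other markers were not called in WT or in KO. The median log2 fold change of all 9 was 0.29 in WT and -0.21 in KO, and the part of these markers in *Lyve1* was not tested. In VAA *Folr2* fell and 2 of the 9, *Csf1r* and *C1qb*, rose.

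The 5 other identity genes were called nowhere in WT or KO. *Pecam1* stood at 22.5 and 24.6 CPM in untreated WT and at 29.0, 27.3 and 25.1 in WT DSS. In VAA it stood at 23.0 and 23.6 untreated and at 34.0, 29.8 and 73.6 under DSS, and in KO at 20.2 and 21.8 untreated and at 25.4, 17.9 and 19.7 under DSS. WT and VAA DSS libraries lay above their controls, by little in WT. The edgeR log2 fold change was 0.20 ± 0.30 in WT, 0.97 ± 0.31 in VAA (adjusted p = 0.0397) and -0.0034 ± 0.30 in KO. Without VAA DSS replicate 3 the VAA value was 0.45 and was no longer called (edgeR adjusted p = 0.0501, range 0.0083 to 0.24). The mean of the 3 *Pecam1* effects was called without VAA DSS replicate 3 (0.22, edgeR adjusted p = 0.0483) and without VAA DSS replicate 2 (0.47, 0.0254), and not with all libraries. In all 15 of 22 alternatives ended the VAA call, among them leaving out any 1 untreated library, any WT DSS library or KO DSS replicate 3.

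*Cdh5* stood at 6.91 and 11.2 CPM in untreated WT, 6.44 and 10.5 in VAA and 5.89 and 10.6 in KO. Under DSS it stood at 12.6, 10.7 and 6.90 in WT, 11.8, 8.73 and 33.8 in VAA and 5.97, 6.55 and 4.76 in KO. The groups overlapped in all 3 genotypes. *Kdr*, the VEGF receptor VEGFR2, stood at 7.93 and 9.22 CPM in untreated WT and at 8.97, 8.59 and 6.08 in WT DSS, at 9.95 and 9.03 in untreated VAA and at 14.5, 9.54 and 26.3 in VAA DSS, and at 8.34 and 12.8 in untreated KO and at 6.75, 7.10 and 7.51 in KO DSS. Only the KO groups separated, with DSS lower, and the edgeR log2 fold change there was -0.57 ± 0.34 (adjusted p = 0.308). *Vwf*, the von Willebrand factor of endothelium and platelets, ran from 17.6 to 23.9 CPM in untreated libraries, from 14.3 to 33.0 in WT and KO DSS libraries and from 14.1 to 73.1 in VAA DSS. *Ackr1*, the atypical chemokine receptor of venules, ran from 1.36 to 2.07 CPM untreated, from 0.944 to 2.19 in WT DSS, from 1.45 to 4.90 in VAA DSS and from 0.341 to 1.16 in KO DSS. The KO DSS libraries lay below the KO controls for *Ackr1* (edgeR log2 fold change -1.11 ± 0.61, adjusted p = 0.270). *Ackr1* shares exon sequence with *Cadm3* on the same strand, and 23.0% of its distinct 31-base words, so its counts are uncertain.

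Setting each adhesion gene against *Pecam1* and *Cdh5* of the same library gives its level relative to these identity genes, as the log2 CPM of the gene minus the mean log2 CPM of both. This is a description with no test, on log2 CPM with a prior count of 2, and other cells can add to any of these genes. For *Selp* the mean ratio was higher under DSS by 1.80 in WT, 1.34 in VAA and 0.28 in KO, and the WT and VAA groups separated. For *Vcam1* it was higher by 1.04 in WT, 0.14 in VAA and 0.74 in KO. The DSS libraries lay above the controls in WT and KO, and VAA DSS replicate 3 had the lowest *Vcam1* ratio of the study, without which the VAA difference was 0.62. For *Sele* it was higher by 2.38, 1.51 and 1.21 in WT, VAA and KO, with no overlap in any genotype. In KO the *Sele* CPM did overlap, since DSS replicates 1 and 2 held 2 counts each, as did untreated replicate 2. *Cdh5* stood at 5.97 and 6.55 CPM in these DSS libraries and at 10.6 in that control. Their ratios thus differ from that control's through the reference genes and not through *Sele* counts. For *Madcam1* it was higher by 1.92 in WT and by 0.60 in KO and was -0.046 in VAA, and only the WT groups separated. In KO, then, *Vcam1* stood above its controls relative to *Pecam1* and *Cdh5* and *Selp* did not. For *Sele* and *Madcam1* the prior count enters these ratios, since several libraries held 0 to 3 counts.

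**Figure D3:**
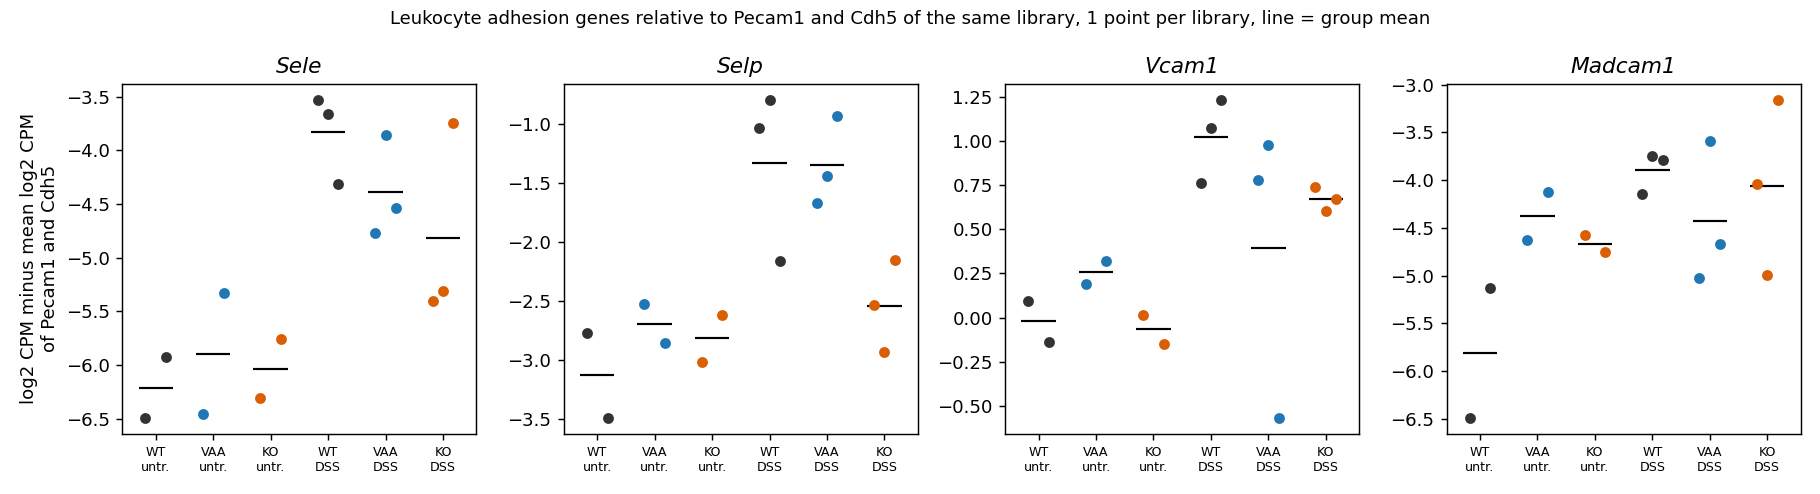
Log2 ratio of each adhesion gene to *Pecam1* and *Cdh5* (y axis, each panel with its own scale) in the 6 groups (x axis), 1 point per library and a line at the group mean. The *Vcam1* ratio was 0.67 ± 0.068 in KO DSS against -0.066 ± 0.12 in KO controls (mean ± SD), and the *Selp* ratio was -2.54 ± 0.39 against -2.82 ± 0.28.

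Among DSS colons, KO stood below WT for *Vcam1* and below VAA for 6 members. Against WT the edgeR log2 fold change of *Vcam1* was -0.92 ± 0.16 (adjusted p = 0.00823), the only member called, against 2.46% of all genes called lower. That call ended without WT DSS replicate 2 (edgeR adjusted p = 0.052, range over 22 alternatives 1.8e-05 to 0.052). *Selp* was lower by a log2 fold change of -2.01 ± 0.60 and missed the threshold (edgeR adjusted p = 0.0689). Its KO libraries lay wholly below the WT libraries, as did those of 19.5% of all genes tested. Without VAA DSS replicate 3, which enters this comparison through the shared estimate of spread, *Selp* and *Lyve1* were called as well (edgeR adjusted p = 0.0066 and 0.0204). Both were also called in the edgeR fit of the compared groups alone (adjusted p = 0.0209 and 0.0239). DESeq2 called *Selp* too (adjusted p = 0.00987). So did edgeR with no filter (adjusted p = 0.048) and without WT DSS replicate 3 (0.0297) or VAA DSS replicate 2 (0.0455). *Sele* stood at -1.85 ± 0.82 and *Lyve1* at -0.73 ± 0.33 (edgeR adjusted p = 0.208 and 0.216), and the other members had edgeR adjusted p from 0.283 to 0.842.

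Against VAA, 4 of 6 identity genes and 2 of 4 adhesion genes were called lower in KO, against 9.41% of all genes. The edgeR log2 fold changes were -1.12 ± 0.27 for *Pecam1* (adjusted p = 0.0151), -1.64 ± 0.46 for *Cdh5* (0.0289), -1.23 ± 0.31 for *Kdr* (0.0184) and -1.62 ± 0.33 for *Lyve1* (0.00721). They were -2.80 ± 0.61 for *Selp* (adjusted p = 0.00927) and -0.92 ± 0.16 for *Vcam1* (adjusted p = 0.00302). The KO libraries lay wholly below the VAA libraries for all members but *Vwf* and *Madcam1*, and for 14.6% of all genes tested. Without VAA DSS replicate 3, *Cdh5* fell out at -0.83 and *Kdr* at -0.75 (edgeR adjusted p = 0.128 and 0.0571), while *Pecam1* at -0.60, *Lyve1* at -1.02, *Selp* at -1.74 and *Vcam1* at -0.91 were still called (edgeR adjusted p = 0.0172, 0.00708, 0.0224 and 0.00433). *Cdh5* and *Kdr* also fell out without any 1 of the KO DSS libraries and *Pecam1* without KO DSS replicate 2 or 3, and fitting both groups alone called *Vcam1* only. VAA and WT under DSS differed in 0 members, against 0.00572% of all genes, which is 1 gene. At an unadjusted p under 0.05 there were 2855 genes and 3 members, *Pecam1*, *Kdr* and *Lyve1*, and DESeq2 called 36 genes. Without VAA DSS replicate 2 both *Pecam1* (0.98) and *Kdr* (1.37) were called higher in VAA than in WT (edgeR adjusted p = 0.0461 and 0.0394). For *Vcam1* the edgeR log2 fold change of VAA against WT was 0.0026 ± 0.15. These comparisons share the KO, VAA and WT DSS libraries in pairs and are not independent of each other.

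**Figure D4:**
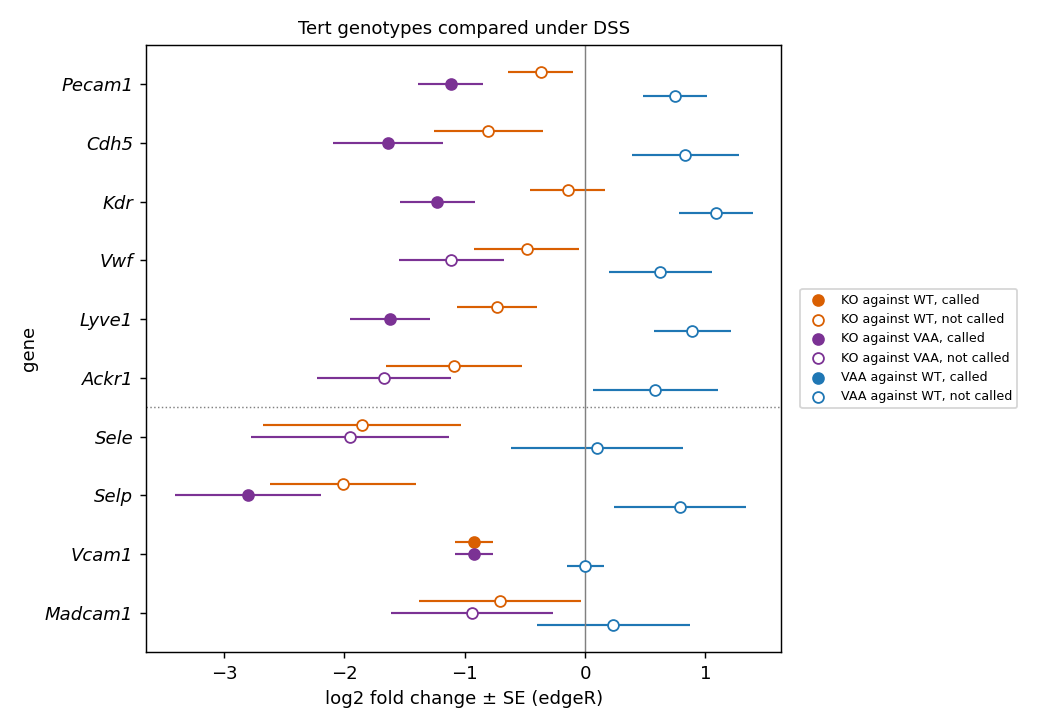
Log2 fold change with its SE from the edgeR fit (x axis) between genotypes under DSS for each gene (y axis; identity genes above the dotted line, adhesion genes below). Filled points were called at an adjusted p under 0.05, 1 for KO against WT, 6 for KO against VAA and 0 for VAA against WT.

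Whether the effect of DSS itself differed between genotypes was tested as an interaction, and 0 members were called in any of the 3. All genes were called at 0% for KO minus WT, 0% for VAA minus WT and 0.0687% for KO minus VAA. At an unadjusted p under 0.05 there were 1736, 1259 and 2542 genes, of which 2, 0 and 5 were members, and DESeq2 called 138, 0 and 539 genes. The KO effect minus the WT effect was -0.72 ± 0.25 for *Vcam1* and -2.24 ± 0.99 for *Selp* (edgeR adjusted p = 0.372 and 0.492). The KO effect minus the VAA effect was -1.63 ± 0.51 for *Lyve1*, -1.38 ± 0.49 for *Kdr* and -2.62 ± 0.98 for *Selp* (edgeR adjusted p = 0.176, 0.226 and 0.253). For *Vcam1* that difference was -0.48 ± 0.25 (edgeR adjusted p = 0.401). Calls in WT or VAA and not in KO are therefore not shown to be differences between the genotypes in the response to DSS.

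Other genes of the vessel wall are set beside the members by count. Of all genes 14.1% were called higher and 12.5% lower in WT DSS, 10.9% and 9.54% in VAA and 5.59% and 5.06% in KO. Between KO and VAA under DSS 9.41% were called lower. Of 26 other pan-endothelial genes 1 was called higher and 1 lower in WT DSS, 6 and 1 in VAA and 1 and 1 in KO. The 2 genes called in every genotype were *Ecscr*, higher by 1.71 ± 0.26 in WT, 1.65 ± 0.27 in VAA and 0.97 ± 0.27 in KO, and *Clec14a*, with edgeR log2 fold changes of -1.59 ± 0.24, -1.46 ± 0.24 and -1.34 ± 0.24. Between KO and VAA under DSS 13 of the 26 were called lower, among them *Eng* at -1.81 ± 0.35 and *Nos3*, the endothelial nitric oxide synthase, at -2.47 ± 0.56. Their summed level was 145.1 to 166.3 CPM in untreated libraries, 121.3 to 181.8 in WT DSS, 150.0 to 512.7 in VAA DSS and 103.7 to 119.4 in KO DSS. All 3 KO DSS libraries thus lay below every other library of the study, though at the closest by only 119.4 against 121.3 CPM in WT DSS replicate 3. The share of all genes that separate in this way was not computed. In KO against WT under DSS 1 of the 26 was called lower and 25 were not called, against 2.46% of all genes called lower. Of 6 lymphatic endothelial genes *Mmrn1* fell in WT (-1.63 ± 0.51) and KO (-2.33 ± 0.53) and *Pdpn* rose in VAA (1.14 ± 0.28), and 4 of 6 were called lower in KO than in VAA under DSS. The pan-endothelial sum of 512.7 CPM was that of VAA DSS replicate 3, against 216.4 and 150.0 in replicates 1 and 2. Whether the calls of both lists between KO and VAA hold without replicate 3 was not tested. Of 19 genes tested of the VEGF, angiopoietin and Notch pathways, a list that holds *Kdr* itself, 1 was called higher and 1 lower in WT, 1 and 0 in VAA and 1 and 1 in KO. Of 19 adhesion and transmigration genes, 6 of them members, 5 were called higher and 6 lower in WT, 4 and 2 in VAA and 0 and 2 in KO. Those called higher include the members *Sele*, *Selp* and *Vcam1* in WT and *Selp*, *Vcam1* and *Pecam1* in VAA. This list also shares genes with the pan-endothelial list. *Icam1*, a ligand of beta2 integrins, rose by 2.81 ± 0.37 in WT and 2.80 ± 0.37 in VAA and stood at -1.49 ± 0.29 in KO against WT under DSS (edgeR adjusted p = 0.014).

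Lists of inducers of adhesion genes and of leukocyte counter-receptors were counted in the same way. The inducer list holds cytokines and their receptors, and also transcription factors and inhibitors of NF-kappaB. The counter-receptor list holds leukocyte ligands, and also fucosyltransferases and chemokine receptors. The same shares of all genes stand beside them. Of 21 inducers tested 15 rose in WT, 15 in VAA and 4 in KO, where 1 fell, *Il1r1*, the IL-1 receptor. *Il1b* rose by 6.47 ± 0.55 in WT, 6.34 ± 0.57 in VAA and 4.23 ± 0.56 in KO, and *Tnf* by 4.55 ± 0.86 in WT and 4.06 ± 0.83 in VAA. Under DSS 6 of the 21 were called lower in KO than in WT, against 2.46% of all genes, and 10 lower than in VAA, against 9.41%. In KO against WT *Il1b* stood at -2.74 ± 0.35 and *Il6* at -3.96 ± 0.80. Of 13 leukocyte counter-receptors tested 7 rose in WT, 6 in VAA and 3 in KO. *Selplg*, the ligand of P-selectin, rose by 1.05 ± 0.23 in WT and 1.09 ± 0.23 in VAA, and *Itgal* rose in all 3 genotypes, by 2.24 ± 0.52, 2.07 ± 0.52 and 2.14 ± 0.52. The 6 neutrophil markers summed to 17.6 to 32.7 CPM in untreated libraries, 204.9 to 265.7 in WT DSS, 237.3 to 391.3 in VAA DSS and 39.2 to 46.1 in KO DSS. Among the DSS groups KO had the lowest mean of this neutrophil sum. The 7 epithelial markers summed to 8481 to 10020 CPM in KO DSS and to 5507 to 7604 in all other libraries. The part of these marker levels in the members' levels was not tested.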

How the data were processed

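Total RNA libraries of mouse colon, read as 76-base paired ends per the labels, fell into 6 groups by genotype and treatment. Estimated counts per symbol were deposited, and the submitters' processing notes name kallisto 0.46 and mm10. For the annotation, the strand setting and the summing of transcripts the sources used here state nothing. All estimated counts deposited were already whole, so none was rounded. The deposited log2 CPM, made by the authors for 17531 symbols, were recomputed from the counts within 0.018 and used only for that check.

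Counts were tested with edgeR 4.0.16 in R 4.3.3: its expression filter left 17477 genes, libraries were scaled by TMM, and 1 mean per group was fitted to all 15 libraries (9 residual degrees of freedom) for the quasi-likelihood test. There were 13 contrasts, each with Benjamini-Hochberg adjustment over all genes tested. CPM is TMM-scaled, and log2 CPM uses a prior count of 2. CPM per kb divides by the annotated exon length in GENCODE on mm10. The test was checked on simulated counts. Alternatives were DESeq2 1.42.0 and its size factors, no filter, the compared groups alone, a replicate block, each library left out in turn, and a term for sex. Leaving out both male libraries was added after seeing the data. Replicate numbers were not taken as pairing the samples.

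The members, and the lists of endothelial, adhesion, inducer, counter-receptor and cell type genes, were chosen with earlier results of these data known. Named are the 10 members, up to 4 genes per list and comparison by smallest p with called ones first, the 3 genes most correlated with each member at a mean log2 CPM of at least 2, and *Tert*. *Tnf*, *Il1r1* in KO and *Itgal* in WT and VAA lie outside this rule and were chosen after their values were seen.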

Additional observations from a re-analysis of the deposited data

How the results depend on the processing

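Over the 10 members, 13 comparisons and their alternatives there were 2840 values: 2748 kept their direction and side of the threshold, 64 lost a call, 28 gained one and 0 reversed, where a change of sign of a value called under neither setting was not counted. The averaged effect was not refitted on the compared groups alone, which are all groups. Counts of all genes called, with members after them where they changed, moved by over 1.5 times as follows. DESeq2 gave 1778 and 2 members for KO against WT under DSS, 36 for VAA against WT under DSS, 9, 2 and 3 in the untreated pairs (KO and WT, VAA and WT, KO and VAA), and 138 and 539 for the KO minus WT and KO minus VAA interactions. No filter gave 2 members for KO against WT and 2 genes for VAA against WT under DSS, and 5 and 107 for these interactions. Fitting the compared groups alone gave 1089 and 0 members for DSS in VAA, 2986 in KO, 2766 and 3 members for KO against WT, 0 for VAA against WT, 545 and 1 member for KO against VAA, and 31 and 0 for the interactions. Sex as a covariate gave 2 members in WT, 1187 genes in KO and 0 for the KO minus VAA interaction. Without both male libraries the counts were 1999 and 2 members in WT, 538 and 0 members in KO, 531 for KO against WT under DSS and 0 for that interaction. The cause was not tested.

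Whether replicate numbers pair the samples was not settled. Of 33 same-numbered pairs of libraries, 8 correlated over 0.1 in their deviations from group means (r from -0.16 to 0.31). In the untreated groups, with 2 libraries each, these deviations mirror each other, so the correlations cannot exclude a pairing. With the replicate block 1 member was called for DSS in VAA, 0 genes for VAA against WT under DSS and 0 for the KO minus VAA interaction.

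Leaving out 1 library at a time, DSS in WT gave 1958 (without WT untreated replicate 1) to 6505 genes and 1 to 5 members, in VAA 1789 (without VAA untreated replicate 1) to 4902 and 1 to 6, and in KO 403 (without KO untreated replicate 1) to 3750 and 0 to 1. Under DSS, KO against WT gave 121 (without WT DSS replicate 2) to 2704 and 0 to 3, VAA against WT 0 to 848 and 0 to 2, and KO against VAA 1380 (without KO DSS replicate 2) to 3796 and 3 to 8. The highest of these counts came without VAA DSS replicate 3, except for both comparisons with VAA under DSS and for members in VAA, where VAA DSS replicate 2 was left out. The untreated KO and VAA pairs with WT gave 0 to 1 genes, the KO minus WT interaction 0 to 18 and the KO minus VAA interaction 0 to 837 genes and 0 to 1 members.

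A prior count of 0.5 moved the difference in log2 ratio to *Pecam1* and *Cdh5* to 3.571 in WT, 2.579 in VAA and 2.034 in KO for *Sele*, and to 2.953 in WT for *Madcam1*. Leaving out a library gave 1.24 to 2.599 for *Madcam1* in WT. Counts of 0 to 3 per library limit *Sele* and *Madcam1*, and 2 libraries per untreated group limit every DSS effect.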

Other observations

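Cell type lists not set beside a member above gave these counts for DSS against untreated in WT, VAA and KO. Of all genes 14.1%, 10.9% and 5.59% were called higher there and 12.5%, 9.54% and 5.06% lower. All 8 smooth muscle markers fell in WT, 7 in VAA and 5 in KO. Of 7 fibroblast markers 2, 2 and 3 fell. Of 7 pericyte markers tested 1 rose and 1 fell in WT, 2 rose in VAA and 1 fell in KO, and 6 of the 7 were lower in KO than in VAA under DSS, *Kcnj8* by a log2 fold change of -3.76 ± 0.48. Whether these pericyte calls between KO and VAA hold without VAA DSS replicate 3 was not tested. Of 7 erythroid markers 0, 0 and 1 fell and 0 rose. Of 6 neutrophil markers 5, 6 and 4 rose, and of 7 epithelial markers 2, 0 and 3 rose and 1, 1 and 0 fell.

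As a description over the same 15 libraries, which share the 6 groups and so share their treatment effects, the genes whose log2 CPM ran most alike to each member by Pearson's r were named. They were *Lrrc8c*, *Prkar1a* and *Gcnt2* for *Pecam1* and *Adgrf5*, *Zfand2a* and *Gprc5b* for *Cdh5*. *Pald1*, *Ptprb* and *Trim3* came nearest to *Kdr*, and *Ptprb*, *Hip1* and *Tie1* to *Vwf*. *Gli2*, *Prkd3* and *Mmrn1* came nearest to *Lyve1*, and *Ccp110*, *Dkk3* and *Zcchc24* to *Ackr1*. Among adhesion genes, *Irak3*, *Icam1* and *Osmr* came nearest to *Sele*, *Sod2*, *Ifitm2* and *C1s1* to *Selp*, *Pirb*, *Fbxl5* and *Cp* to *Vcam1*, and *Napsa*, *Zcchc9* and *Bap1* to *Madcam1*. The likeness of the nearest gene was 0.874 for *Madcam1* and between 0.921 and 0.966 for the others.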
